A study of Homo sapiens with 24 samples.

Results

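The genes described here are 10 classical targets of the actin, serum response factor (SRF) and YAP pathways: TAGLN, MYL9, TPM1, TPM2, ACTA2, CNN1, VCL, SRF, CCN1 and CCN2. They were chosen by name, and all 10 were among the 11940 genes measured. Each was read from 1 probe set, the one of highest mean signal over the 24 arrays, and all 17 probe sets of these genes that carry 1 symbol are compared further on. The cells were A2780, a human ovarian cancer line, transfected either with the empty vector pcDNA or with Rab25, a Rab11-type small GTPase that works in recycling endosomes. Each line had 4 arrays of cells kept without serum and 2 arrays for each of 4 treatments, with every group split evenly over experiment 1 and experiment 2. The treatments were fetal bovine serum (FBS) at 5%, TGF beta at 5 ng/ml, and EGF or IGF, each at 10 ng/ml. All cells had first been starved of serum for 8 h. By the protocol the exposure lasted 8 h for experiment 1 but 24 h for experiment 2. By the source names it lasted 24 h for both, so a difference between experiments cannot be assigned to exposure time. Each line stands for 1 transfection, with no label saying whether it was a clone or a pool, and no label says that arrays of a group came from separate cultures, so p-values measure the spread between arrays, which may be technical.

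SRF is a transcription factor that binds the CArG box. It is switched on when actin monomers polymerise into filaments and release the MRTF coactivators, and its targets include the contractile proteins of smooth muscle and of motile cells. YAP and its relative TAZ (WWTR1) are coactivators restrained by the Hippo kinases; they bind DNA through TEAD factors, and CCN1 and CCN2 are their most used readouts. Both pathways respond to cell shape and serum, and TGF beta adds SMAD input at several of the same genes.

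Promoters were looked up to show the DNA elements through which these pathways are known to act. RefSeq windows on GRCh38.p14, from 250 bases before to 50 bases after a transcription start, were given for 7 of the 10 genes (TPM1, TPM2, ACTA2, CNN1, VCL, SRF and CCN2, with 10 windows in all). They were searched on both strands for the CArG box and for GGAATG, the core bound by TEAD factors, which do not overlap each other. A CArG box stood in 1.29% of 35116 such windows and GGAATG in 14.0%. Of the 7 genes, only 1, SRF, held a CArG box, and 3 held GGAATG. TAGLN, MYL9 and CCN1 had no window, and sequence outside the windows was not searched. SRF held 2 CArG boxes in 1 of its windows, where 0.0313% of windows held 2 or more. CCN2 held 3 GGAATG cores, where 0.125% of windows held 3 or more, and VCL and ACTA2 held 1 each. The stretch of SRF shown is chr6:43171219-43171268 on the plus strand, ending at the base before the start. That of CCN2 is chr6:131951442-131951561 on the minus strand, from 189 to 70 bases upstream. These 2 are shown because SRF and CCN2 are the members whose responses changed most between the experiments. Capitals mark the CArG boxes in SRF and the GGAATG cores in CCN2, and a match is a string of letters and not a measured binding site.
SRF: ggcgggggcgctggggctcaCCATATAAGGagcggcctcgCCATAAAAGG
CCN2: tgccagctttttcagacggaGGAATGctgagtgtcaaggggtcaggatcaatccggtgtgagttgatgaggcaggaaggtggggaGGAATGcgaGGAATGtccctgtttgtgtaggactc

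RAB25 itself averaged 5.26 ± 0.25 (log2 signal, SD, n = 12) in pcDNA cells and 8.65 ± 0.30 (n = 12) in Rab25 cells, in accord with the labels. Array medians lay between 6.92 and 7.23. The lowest medians were those of the Rab25 arrays with FBS in experiment 2 and with TGF beta in experiment 1. Among epithelial and ovarian markers, PAX8 averaged 11.9, KRT8 12.7 and KRT18 14.0, whereas EPCAM averaged 5.25, CDH1 5.50 and MUC16 4.94. For 9 genes of other tissues the means were 5.00 to 5.79.

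The 2 Rab25 arrays with FBS stood apart from the other 22. Their mean over 7 fibroblast markers was 10.2 in experiment 1 and 9.04 in experiment 2, against 6.81 to 7.38 on all others. The collagen gene COL3A1 read 12.8 and 11.0 there, and 5.04 to 6.60 on the others. LUM, a matrix proteoglycan, read 10.5 and 7.57 against 4.54 to 4.85. On both arrays, 4 of 7 fibroblast markers (COL1A1, COL1A2, COL3A1 and LUM), 3 of 4 immune markers (PTPRC, CD14 and CD68), 1 of 8 epithelial markers (KRT19) and 1 of 9 genes of other tissues (HBB) were above every other array, and 0 of 7 smooth muscle and pericyte markers and 0 of 4 endothelial markers were. PTPRC, CD14, CD68 and HBB were dim, with means of 5.35, 5.31, 5.43 and 5.52 over the 24 arrays. Their log2 changes with FBS over both lines were only 0.13, 0.26, 0.06 and 0.21, beside 3.22 for COL3A1. Of these 4 dim genes only HBB passed (limma adjusted p = 0.0091). Of the 7 smooth muscle and pericyte markers, MYH11, DES, LMOD1 and ACTG2 stayed between 5.40 and 6.27 on all 24 arrays. The others were brighter, with means of 9.57 (SMTN), 7.49 (RGS5) and 6.66 (PDGFRB). SMTN rose with FBS over both lines (0.21, limma adjusted p = 0.025). Between lines over all conditions, RGS5 was lower in Rab25 (−0.37, limma adjusted p = 0.0017) and ACTG2 higher (0.11, adjusted p = 0.032). Several of the 10 genes are abundant in fibroblasts and smooth muscle, so most results of these genes that passed with these 2 arrays in the fit are also given without them where that can be computed, and the part that those markers play in them was not tested. The calls between lines in starved cells, and the SRF response to IGF between experiments, are given only with the 2 arrays in the fit. In such bulk RNA, a change in the number of cells that express a gene and a change in RNA per cell cannot be told apart.

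**Figure D1:**
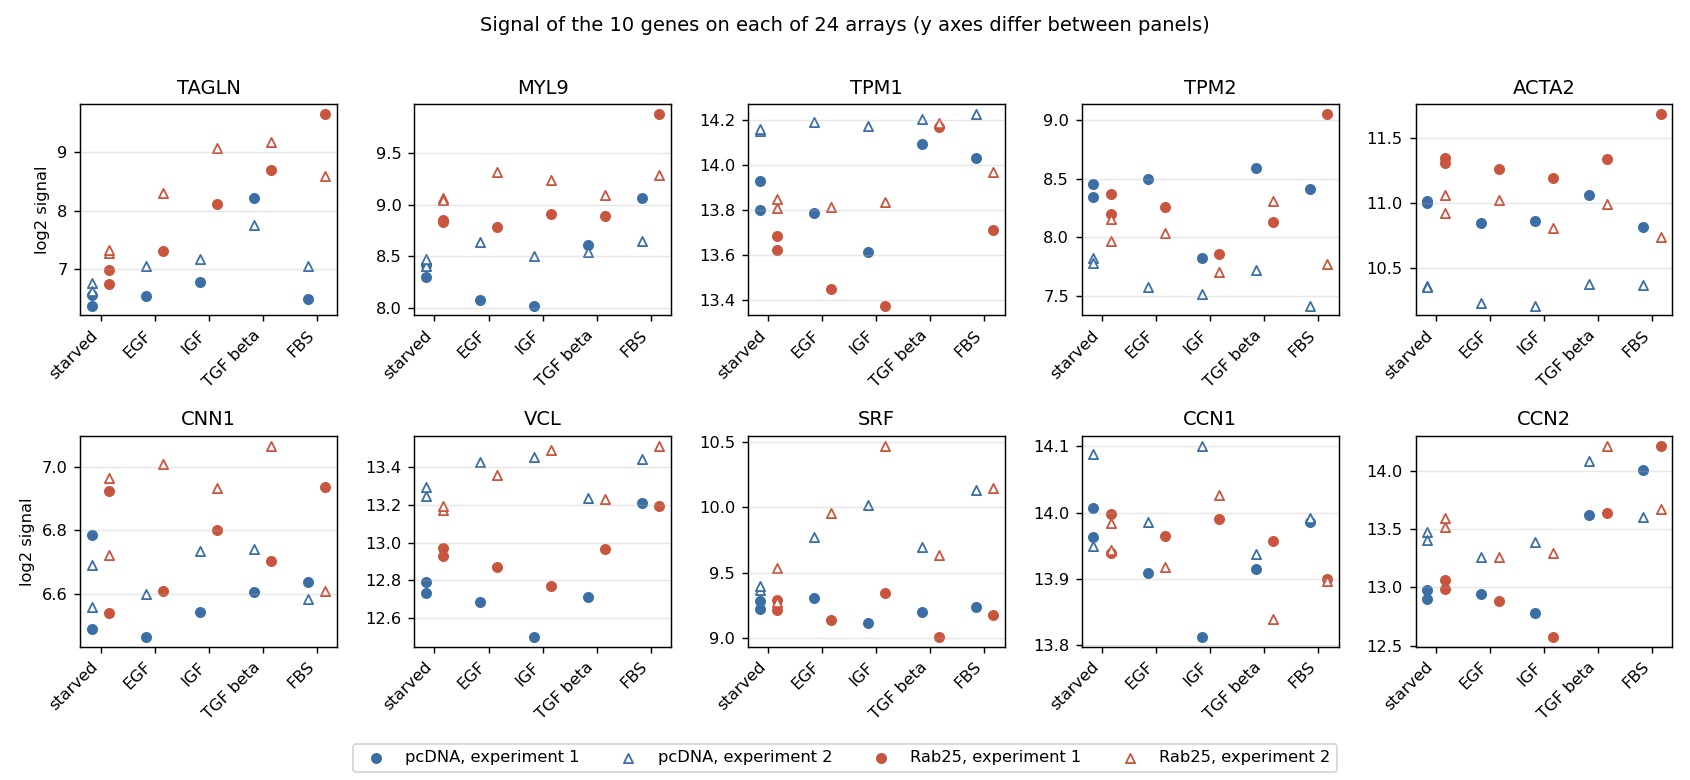
Log2 signal (y axis, own range in each panel) of the 10 genes on the 24 arrays, by treatment (x axis), line (blue pcDNA, red Rab25) and experiment (filled circles 1, open triangles 2). TAGLN spans 6.37 to 9.66, whereas CCN1 spans only 13.8 to 14.1.

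Rab25 cells had more signal than pcDNA cells for 4 of the 10 genes, and less for 1, when all conditions were compared. TAGLN (transgelin, an actin-bundling protein of smooth muscle) was 2.44-fold higher, MYL9 (the regulatory light chain of non-muscle and smooth muscle myosin) 1.55-fold, ACTA2 (smooth muscle actin) 1.44-fold and CNN1 (calponin, which binds actin and restrains myosin) 1.16-fold. TPM1, a tropomyosin that coats actin filaments, was 1.18-fold lower. Of all genes, 9.14% passed the same test as higher (limma, Benjamini-Hochberg adjusted p under 0.05) and 15.5% as lower, against 4 and 1 of these 10. The median over the 10 genes was 0.13 on the log2 scale, and over all genes −0.01.

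TAGLN in starved pcDNA cells read 6.37 and 6.56 in experiment 1 and 6.76 and 6.62 in experiment 2, and in starved Rab25 cells 6.99 and 6.74, then 7.28 and 7.32. Within each experiment every starved Rab25 array lay above every starved pcDNA array. The difference in starved cells was 0.50 on the log2 scale (SE 0.24) and did not pass (limma adjusted p = 0.18). Over all conditions it was 1.29 (SE 0.14, adjusted p = 4.6e-06), with Rab25 higher in 10 of 10 sets matched by treatment and experiment, by 0.40 to 3.17. The highest of those sets was FBS in experiment 1. Without both Rab25 FBS arrays the log2 difference was 1.02 (SE 0.11, limma adjusted p = 4.4e-06).

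ACTA2 separated the lines within each experiment. In experiment 1 its pcDNA arrays lay between 10.81 and 11.06 and its Rab25 arrays between 11.19 and 11.68. In experiment 2 the ranges were 10.21 to 10.37 and 10.74 to 11.06. The ranges over both experiments overlapped, as they did for all 10 genes. The log2 difference was 0.52 (SE 0.06, limma adjusted p = 3.5e-06) over all conditions, 0.50 without both Rab25 FBS arrays, and 0.48 (SE 0.09, adjusted p = 0.0027) in starved cells. A second ACTA2 probe set, with a mean of only 5.99, differed by 0.06.

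MYL9 lay between 8.03 and 9.06 on pcDNA arrays (median 8.49) and between 8.78 and 9.88 on Rab25 arrays (median 9.05). Experiment 2 had no overlap, with 8.41 to 8.65 in pcDNA and 9.04 to 9.31 in Rab25. The log2 difference was 0.64 (SE 0.09, limma adjusted p = 5.5e-05), 0.61 without both Rab25 FBS arrays, and 0.55 (SE 0.15, adjusted p = 0.022) in starved cells, where any 1 of 4 starved arrays could end the call (adjusted p = 0.0501 to 0.058). It was positive in 10 of 10 matched sets, from 0.28 to 0.88.

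CNN1 differed least of the genes that passed, by 0.21 (SE 0.07, limma adjusted p = 0.031). Its pcDNA arrays had a median of 6.60 (6.46 to 6.78) and its Rab25 arrays 6.86 (6.54 to 7.07), so the ranges overlapped, with the Rab25 median above the highest pcDNA array, and 10 of 10 matched sets were positive. Its call was lost without any 1 of 8 of the 24 arrays (adjusted p = 0.057 to 0.085), and in 3 of 10 other settings. CNN1 was dim, with a mean of 6.72 over the 24 arrays, below every array median (6.92 to 7.23). TPM1 went the other way: pcDNA had a median of 14.12 (13.61 to 14.23) and Rab25 13.81 (13.37 to 14.19). The log2 difference was −0.24 (SE 0.05, limma adjusted p = 0.001), and −0.27 (SE 0.08, adjusted p = 0.024) in starved cells, where the call was lost without any 1 of 5 arrays (adjusted p = 0.055 to 0.076). The exception among its 10 matched sets was TGF beta in experiment 1, at 0.08. The other TPM1 probe sets gave −0.32 and −0.17 between lines. With both Rab25 FBS arrays left out CNN1 gave 0.22 (limma adjusted p = 0.022) and TPM1 −0.22 (adjusted p = 0.0043).

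The other members did not differ between lines by this test. TPM2, the second tropomyosin, gave 0.17 (95% interval −0.06 to 0.40), VCL (vinculin, which ties actin to adhesions) 0.08 (−0.05 to 0.22), and SRF 0.04 (−0.16 to 0.24). The secreted matricellular proteins CCN1 and CCN2 gave −0.02 (−0.10 to 0.05) and 0.03 (−0.19 to 0.24). In starved cells alone, 2 of the 10 genes were higher (ACTA2 and MYL9) and 1 lower (TPM1), where 5.56% of all genes were higher and 9.24% lower. The actin control probe sets on the arrays, whose 3' minus 5' signal is a sign of RNA quality, read 0.63 to 1.17 and were lower in Rab25 in 8 of 10 matched sets, by −0.27 to 0.06. The part of RNA quality in these differences was not tested.

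**Figure D2:**
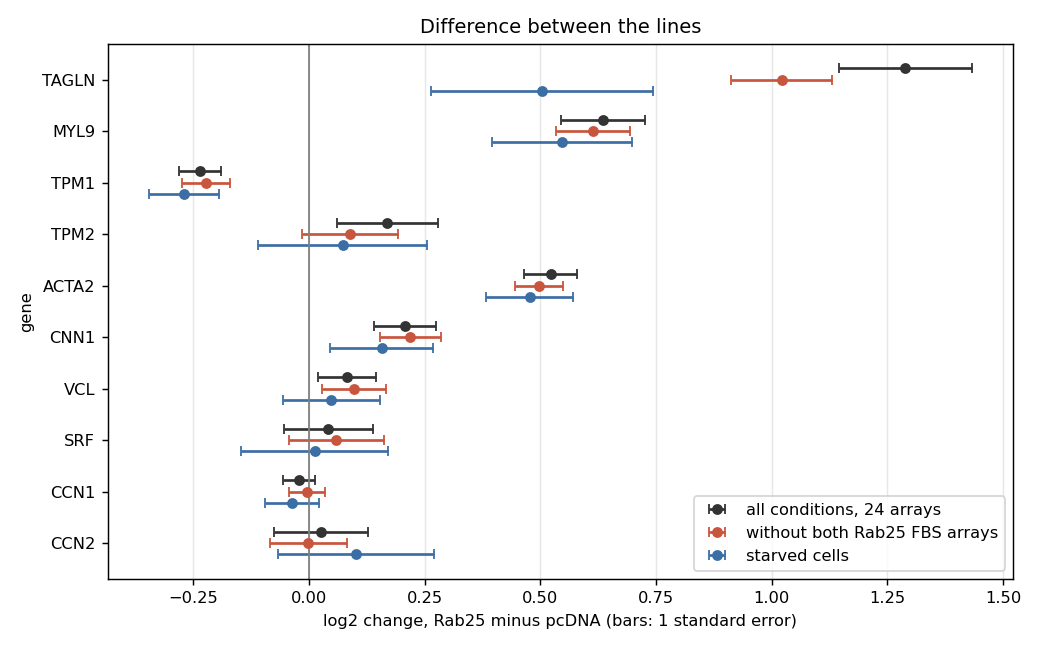
Log2 difference, Rab25 minus pcDNA (x axis), of each gene (y axis) over all conditions (black), without both Rab25 FBS arrays (red) and in starved cells (blue), with bars of 1 standard error. TAGLN falls from 1.29 to 1.02 without those 2 arrays and is 0.50 in starved cells, whereas ACTA2 stays between 0.48 and 0.52.

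TGF beta raised 3 of the 10 genes over both lines, TAGLN 3.09-fold, CCN2 1.57-fold and TPM1 1.22-fold, where 0.846% of all genes were higher. CCN2 (connective tissue growth factor) is a textbook target of both TGF beta and YAP. The other contractile genes did not pass. ACTA2 gave 0.02, CNN1 0.07, MYL9 0.11 and TPM2 0.05 on the log2 scale, and VCL gave −0.01, SRF 0.06 and CCN1 −0.07.

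TAGLN with TGF beta read 8.21 and 7.75 in pcDNA cells and 8.69 and 9.17 in Rab25 cells (experiments 1 and 2). All 4 arrays lay above every starved array of either line. The log2 change was 1.63 (SE 0.21, limma adjusted p = 2.8e-04), with single arrays 1.07 to 1.87 above their own starved controls. It stayed past the threshold without any 1 of the 24 arrays, and without both Rab25 FBS arrays (limma adjusted p = 1.4e-05). In Rab25 cells alone TAGLN rose by 1.85 (SE 0.29, limma adjusted p = 0.0068), and without both Rab25 FBS arrays the adjusted p was 2.9e-04. Without the Rab25 TGF beta array of experiment 2 it was 0.0504. In pcDNA cells alone it gave 1.41 (SE 0.29, adjusted p = 0.055), and 0 of the 10 genes passed with limma, where 0.276% of all genes did; 2 of the 10 had an unadjusted p under 0.05. Without both Rab25 FBS arrays, which lowers the estimated spread, the TAGLN change in pcDNA cells passed (limma adjusted p = 0.005).

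CCN2 with TGF beta read 13.63 and 14.08 in pcDNA cells and 13.64 and 14.22 in Rab25 cells. The starved arrays read 12.90 to 13.07 in experiment 1 and 13.41 to 13.59 in experiment 2. The 4 changes from starved cells were 0.68, 0.64, 0.61 and 0.66, closer to each other than those of any other member that rose. The log2 change was 0.65 (SE 0.15, limma adjusted p = 0.032). It passed with an adjusted p of 0.0044 without both Rab25 FBS arrays, and lost its call without any 1 of 10 of the 24 arrays (adjusted p = 0.053 to 0.21).

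TPM1 rose by 0.29 with TGF beta (SE 0.07, limma adjusted p = 0.035), and by 0.44 (SE 0.09, adjusted p = 0.047) in Rab25 cells, where TAGLN and TPM1 made 2 of 10 against 0.285% of all genes. Single arrays gave 0.23 and 0.05 in pcDNA and 0.52 and 0.36 in Rab25. The call over both lines was lost without any 1 of 9 arrays (limma adjusted p = 0.058 to 0.20), and the call in Rab25 cells without any 1 of 15 (0.053 to 0.47). Under 12 other settings the first was lost in 6, quantile normalization among them (0.053), and the second in 9. When both Rab25 FBS arrays were left out the adjusted p was 0.035 over both lines and 0.043 in Rab25 cells.

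**Figure D3:**
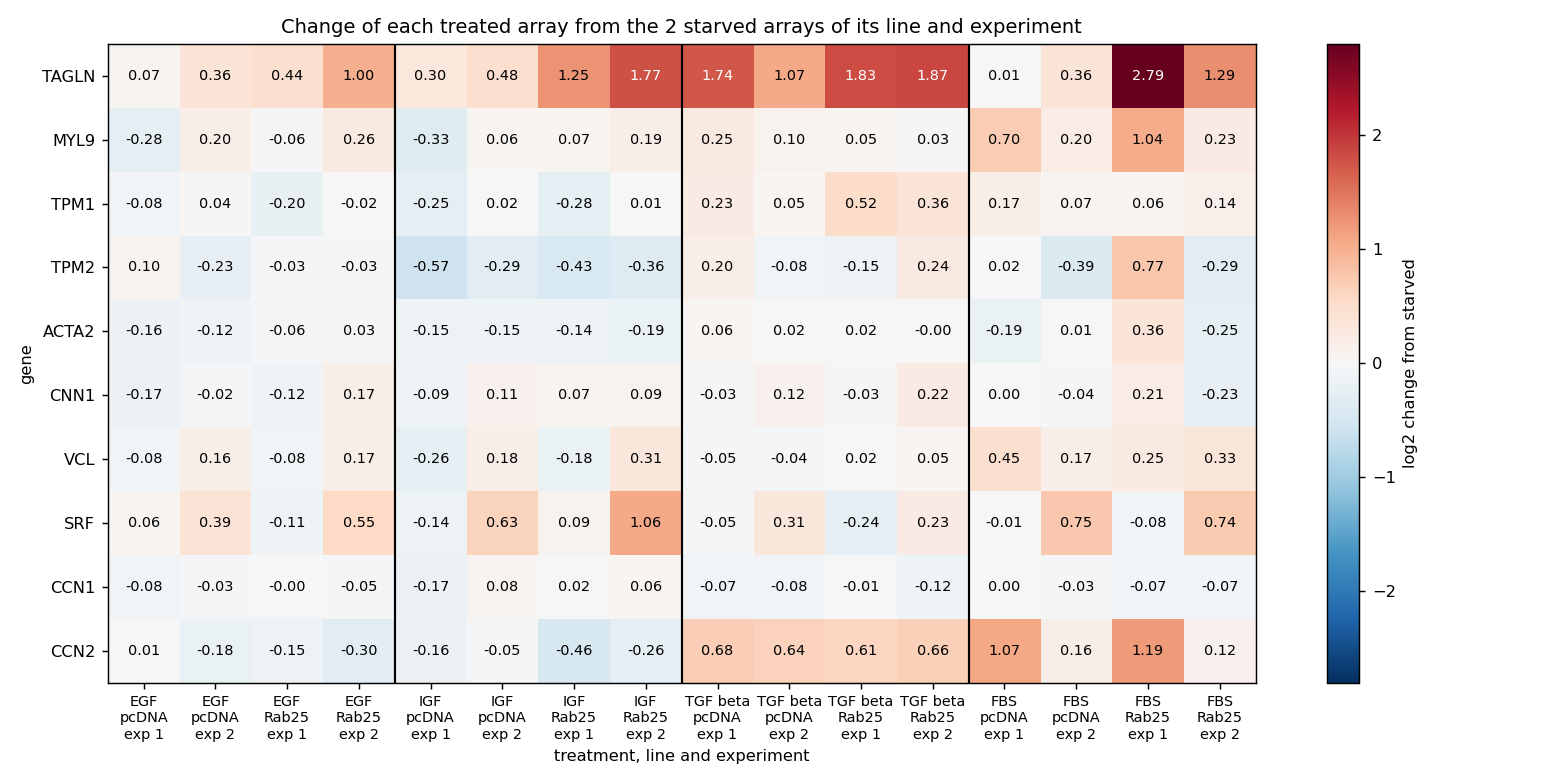
Log2 change of each treated array from the mean of its 2 matched starved arrays, by treatment, line and experiment (columns) for the 10 genes (rows), with colour and number giving the change. CCN2 is even over the 4 TGF beta columns (0.61 to 0.68), and with FBS it is 1.07 and 1.19 in experiment 1 but 0.16 and 0.12 in experiment 2.

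FBS raised 4 of the 10 genes over both lines, TAGLN 2.17-fold, CCN2 1.55-fold, MYL9 1.46-fold and VCL 1.23-fold, where 6.43% of all genes were higher. In pcDNA cells 0 of the 10 genes passed with limma, where 6.75% of all genes did in either direction; 3 of the 10 had an unadjusted p under 0.05. In Rab25 cells TAGLN and MYL9 rose, where 2.64% of all genes were higher.

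TAGLN with FBS read 6.48 and 7.05 in pcDNA cells and 9.66 and 8.59 in Rab25 cells. The pcDNA values lay at the level of starved and EGF-treated pcDNA cells, and the Rab25 array of experiment 1 was the highest of all 24. The log2 change was 0.19 (SE 0.29, 95% interval −0.43 to 0.81) in pcDNA and 2.04 (SE 0.29, limma adjusted p = 7.9e-04) in Rab25. The difference between these responses was 1.86 (SE 0.41, 95% interval 0.98 to 2.73) and did not pass over all genes (limma adjusted p = 0.088). It passed after quantile normalization (1.95, limma adjusted p = 0.035) and with the arrays centred on their medians (1.91, adjusted p = 0.025). Without the Rab25 FBS array of experiment 2 the difference was 2.60, with 1 Rab25 FBS array left. Without both arrays it cannot be computed, so the TAGLN response to FBS in Rab25 cells rests wholly on the 2 arrays with high collagen signal.

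**Figure D4:**
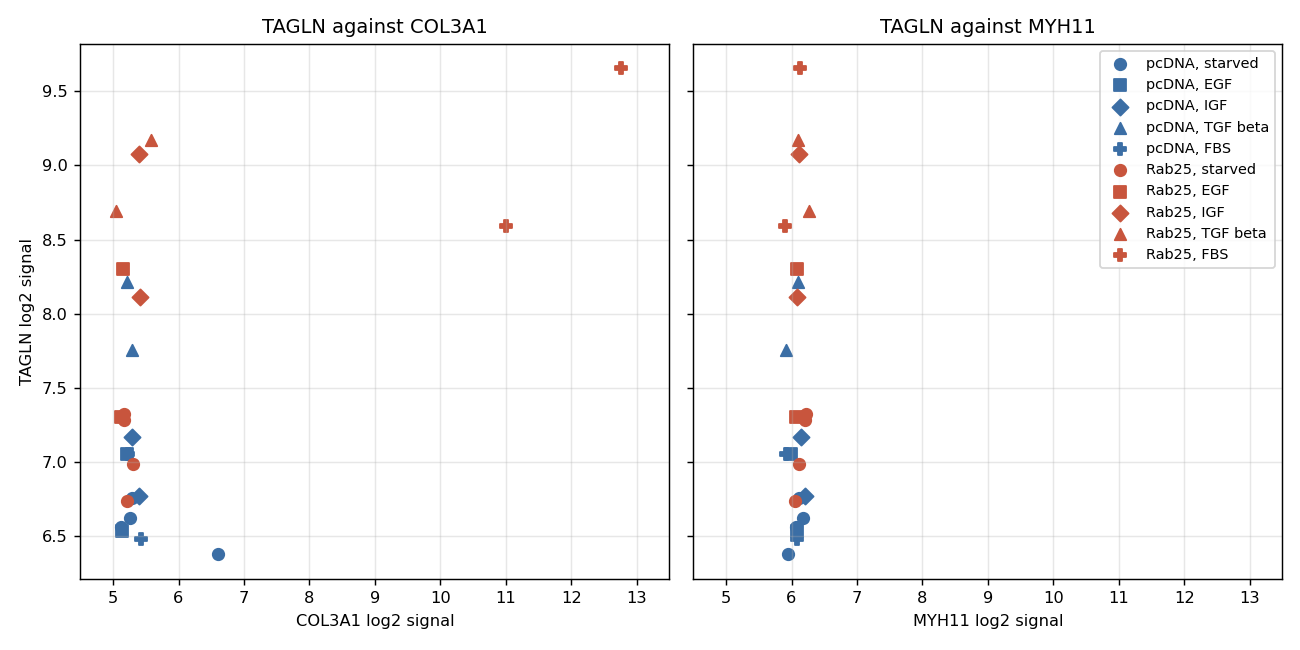
TAGLN log2 signal (y axis) against COL3A1 (left) and MYH11 (right) log2 signal (x axes, same range) on the 24 arrays, by line (blue pcDNA, red Rab25) and treatment (symbols). The 2 Rab25 FBS arrays lie at COL3A1 values of 12.8 and 11.0, and the Rab25 arrays with TGF beta and IGF reach TAGLN values of 8.11 to 9.17 at COL3A1 under 6.60.

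CCN2 and MYL9 were raised by FBS over both lines. In the lines taken singly CCN2 gave 0.62 (SE 0.21, limma adjusted p = 0.083) in pcDNA and 0.65 (SE 0.21, adjusted p = 0.064) in Rab25, and 0.63 (SE 0.15, adjusted p = 0.0075) over both. MYL9 gave 0.45 (SE 0.19, adjusted p = 0.15) in pcDNA and 0.63 (SE 0.19, adjusted p = 0.046) in Rab25, and 0.54 (SE 0.13, adjusted p = 0.0097) over both. Their differences between lines were 0.03 (95% interval −0.58 to 0.65) and 0.18 (−0.37 to 0.73). Without both Rab25 FBS arrays the pcDNA change of CCN2 passed (0.62, SE 0.15, limma adjusted p = 0.02), and that of MYL9 did not (0.45, SE 0.15, adjusted p = 0.062).

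VCL rose by 0.30 with FBS (SE 0.09, limma adjusted p = 0.031), from 0.17 to 0.45 on single arrays, and SRF gave 0.35 (SE 0.14, adjusted p = 0.092). TPM1 gave 0.11, TPM2 0.03, ACTA2 −0.02, CNN1 −0.02 and CCN1 −0.04. Leaving out the pcDNA or the Rab25 FBS array of experiment 1 ended the calls of MYL9 (limma adjusted p = 0.086 and 0.11) and CCN2 (0.063 and 0.092) over both lines. In pcDNA cells without both Rab25 FBS arrays VCL gave 0.31 (SE 0.13, limma adjusted p = 0.13). The call of VCL was lost without any 1 of 5 arrays (0.055 to 0.22), and that of MYL9 in Rab25 cells without any 1 of 15 (0.053 to 0.52).

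IGF raised 1 of the 10 genes, TAGLN, by 1.93-fold over both lines, where 1.17% of all genes were higher. TAGLN read 6.77 and 7.17 in pcDNA and 8.11 and 9.07 in Rab25. The Rab25 arrays lay above every starved array, whereas the pcDNA arrays were within the range of starved Rab25 cells. The log2 change over both lines was 0.95 (SE 0.21, limma adjusted p = 0.023; 0.0023 without both Rab25 FBS arrays), and its call was lost without either pcDNA IGF array or without the Rab25 IGF array of experiment 2 (adjusted p = 0.065 to 0.096). In Rab25 cells alone it was 1.51 (SE 0.29, limma adjusted p = 0.025), where 0.377% of all genes were higher. Its adjusted p was 0.0021 without both Rab25 FBS arrays, and 0.062 to 0.15 without any 1 of 5 arrays of Rab25 starved or IGF-treated cells. In pcDNA cells it was 0.39 (SE 0.29), and 0 of the 10 genes passed with limma, as did 0% of all genes; 0 of the 10 had an unadjusted p under 0.05 there.

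TPM2 gave −0.41 with IGF (SE 0.16, limma adjusted p = 0.20), below starved cells on 4 of 4 arrays by −0.57 to −0.29, and ACTA2 was also lower on 4 of 4, by −0.19 to −0.14. SRF gave 0.41 (SE 0.14, adjusted p = 0.13) and CCN2 −0.23 (SE 0.15).

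EGF changed none of the 10 genes by this test. With limma 0 of the 10 passed over both lines and in pcDNA cells, as did 0% of all genes, and 0 passed in Rab25 cells, where 0.00838% of all genes did. At an unadjusted p under 0.05 these counts were 1, 0 and 1 of the 10. TAGLN had the largest value, 0.47 (SE 0.21, limma adjusted p = 0.71), with 4 of 4 arrays above their starved controls by 0.07 to 1.00.

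The responses to each agent were also compared between lines. With limma 0 of the 10 genes passed for EGF, IGF and TGF beta, as did 0% of all genes in each, and 0 passed for FBS, where 0.209% of all genes did. At an unadjusted p under 0.05 the counts were 0 for EGF and 1 each for IGF, TGF beta and FBS. Beside FBS, TAGLN gave positive differences of 1.12 for IGF (95% interval 0.24 to 2.00), 0.51 for EGF (−0.37 to 1.38) and 0.45 for TGF beta (−0.43 to 1.32). The 4 comparisons share the starved arrays.

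In order of fitted TAGLN levels, the groups were starved pcDNA (6.58), then pcDNA with FBS (6.77), EGF (6.79) and IGF (6.97), starved Rab25 (7.08), Rab25 with EGF (7.80), pcDNA with TGF beta (7.98), and Rab25 with IGF (8.59), TGF beta (8.93) and FBS (9.12). The 1 step between neighbours that exceeded 2 standard errors was from starved Rab25 to Rab25 with EGF, at 0.72. The Rab25 EGF arrays read 7.30 and 8.30 in experiments 1 and 2, and starved Rab25 arrays 6.74 to 7.32. Because the groups were sorted by these means, such steps are a description and not a test. For CCN2 the corresponding step was from starved Rab25 (13.29) to pcDNA with FBS (13.81), with the FBS and TGF beta groups of both lines above it and all others below.

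Experiment 2 differed from experiment 1 for 6 of the 10 genes, taken over all groups. SRF (0.57), VCL (0.48), CCN2 (0.35) and TPM1 (0.28) were higher, where 20% of all genes were, and TPM2 (−0.52) and ACTA2 (−0.52) were lower, where 20.4% of all genes were. For ACTA2 the starved arrays showed it directly, with 10.99 to 11.34 in experiment 1 and 10.35 to 11.06 in experiment 2, and the ranges overlapped. Without both Rab25 FBS arrays TAGLN (0.44) and MYL9 (0.20) were also higher, which made 6 of 10 higher and 2 lower where 22.8% and 20.4% of all genes were. In that fit SRF gave 0.54, VCL 0.49, CCN2 0.43, TPM1 0.28, TPM2 −0.45 and ACTA2 −0.48. The dimmer probe sets of 4 of these genes did not pass, with −0.01 for VCL, −0.02 for SRF, −0.05 for ACTA2 and −0.07 for TPM2.

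The response to FBS differed between experiments for 3 of the 10 genes. CCN2 rose more in experiment 1 than in experiment 2, by 0.99 (a difference of −0.99, SE 0.09, limma adjusted p = 2.2e-05), and MYL9 likewise (−0.65, SE 0.10, adjusted p = 6.8e-04), where 12.9% of all genes were lower in this comparison. SRF went the opposite way (0.79, SE 0.12, adjusted p = 6.8e-04), where 9.53% of all genes were higher.

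CCN2 with FBS read 14.01 in pcDNA and 14.22 in Rab25 in experiment 1, and 13.60 and 13.67 in experiment 2. The corresponding starved arrays were 12.90 to 13.07 and 13.41 to 13.59. The mean change was thus 1.13 in experiment 1 and 0.14 in experiment 2. MYL9 gave mean changes of 0.87 and 0.22. In pcDNA cells alone CCN2 gave 1.07 and 0.16, and MYL9 0.70 and 0.20. The difference between experiments was also computed without both Rab25 FBS arrays, so that it rested on 2 pcDNA FBS arrays, 1 in each experiment. It was then −0.92 for CCN2, −0.57 for MYL9 and 0.75 for SRF. With 1 FBS array per experiment that fit holds no spread between FBS arrays, so only the sizes are given.

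SRF in experiment 1 read 9.24 and 9.17 after FBS, beside 9.21 to 9.29 in starved cells. In experiment 2 it read 10.13 and 10.14 after FBS, above all 4 starved arrays at 9.28 to 9.54. With IGF it read 9.11 and 9.35 in experiment 1 and 10.01 and 10.47 in experiment 2. The IGF response differed by 0.87 (SE 0.12, limma adjusted p = 0.0045), where 1.08% of all genes were higher and SRF was the 1 of the 10 that was. That call was lost without either Rab25 IGF array (adjusted p = 0.12). The dimmer SRF probe set gave 0.28 for the FBS difference and 0.02 for the IGF difference.

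For EGF and TGF beta 0 of the 10 genes passed with limma between experiments, where 0.0838% and 0.402% of all genes did. At an unadjusted p under 0.05 the counts were 2 and 1. SRF gave 0.50 (SE 0.12, limma adjusted p = 0.27) and 0.42 (SE 0.12, adjusted p = 0.29). Over all 4 agents, SRF was above starved cells on 8 of 8 arrays of experiment 2, by 0.23 to 1.06, and between −0.24 and 0.09 on those of experiment 1. The CCN2 response to TGF beta differed between the experiments by 0.01 (95% interval −0.18 to 0.19).

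CCN1 is a partner of CCN2 as a YAP target and an immediate early gene of serum, yet its 24 values spanned 0.29, from 13.81 to 14.10, and it passed in 0 of the 23 comparisons with limma. A second CCN1 probe set gave −0.03 between lines and 0.04 between experiments.

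Over the 24 arrays, with each experiment centred on its own mean, the 45 pairs of these genes had a median Pearson r of 0.18 (−0.46 to 0.79), and 31 were above 0. The arrays share lines, treatments and the 2 arrays that stood apart, so this is a description. By the same measure the genes most like TAGLN were PID1 (r = 0.83), POLM (0.79) and SLC12A4 (0.77). Those most like MYL9 were FJX1 (0.95), CKLF (0.95) and LAMC1 (0.94), and those most like CCN2 were LAMB1 (0.91), ATP13A2 (0.89) and RGS10 (0.89). Those nearest to TPM1 were PODXL (0.94), KRT7 (0.89) and THBS1 (0.88), and to ACTA2 CPT1A, SART1 and IER5 (0.93 to 0.94).

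Other genes of the pathways were read from 3 lists that exclude these 10. Of 26 measured genes of the contractile actin and SRF list, 5 were higher and 1 lower in Rab25, among them CFL1 (cofilin, 0.14), FHL2 (0.23), TGFB1I1 (0.21) and, lower, MYH9 (non-muscle myosin, −0.21). The shares of all genes were 9.14% higher and 15.5% lower, and the median was 0.02 over the list and −0.01 over all genes. TGF beta changed 0 of the 26 with limma (2 at an unadjusted p under 0.05), and FBS raised LIMA1 (0.37) and CFL1 (0.14) and lowered TES (−0.64), where 6.43% of all genes were higher and 10.8% lower. Experiment 2 was higher for 19 of the 26 and lower for 1, where 20% of all genes were higher and 20.4% lower, with a list median of 0.15 against 0.01. The 4 of lowest p were SYNPO (0.56), CNN2 (0.40), CNN3 (0.43) and ZYX (0.31).

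Of 18 measured YAP and TEAD targets, 4 were higher in Rab25 and 5 lower, where 9.14% and 15.5% of all genes were. The higher ones included FJX1 (0.83) and F3 (tissue factor, 0.98), and the lower ones TGFB2 (−1.72) and ASAP1 (−0.39). FBS raised 3, FJX1 (0.96) and FOXF2 (0.64) among them, and lowered MYOF (−0.29) and GADD45A (−0.29), where 6.43% of all genes were higher and 10.8% lower. TGF beta changed 0 of the 18 with limma (5 at an unadjusted p under 0.05), with a list median of −0.10 against −0.02 over all genes. The log2 change with FBS was lower in experiment 2 for 3 of the 18, FJX1 (−1.06), F3 (−0.67) and AXL (−0.53), a share near the 12.9% of all genes.

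Of 25 measured regulators of the 2 pathways, 3 were higher and 3 lower in Rab25, shares near the 9.14% and 15.5% of all genes. YAP1 was higher (0.43), whereas its relative WWTR1 (−0.41), the DNA-binding partner TEAD1 (−0.33) and the Hippo kinase STK3 (−0.33) were lower. FBS raised 3 of the 25, TEAD4 (0.40) and WWC1 (0.47) among them, and lowered 3, among them the Hippo scaffold SAV1 (−0.61) and YAP1 (−0.34). Of all genes, 6.43% were higher with FBS and 10.8% lower. SAV1 also fell with IGF (−0.53) and with TGF beta (−0.30) over both lines, the 1 regulator that passed with each. Of all genes, 1.53% were lower with IGF and 0.754% with TGF beta.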

How the data were processed

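Biotin-labelled cRNA of total RNA was measured on 24 Affymetrix high-throughput human genome arrays. The deposited values are on a log2 scale, 1 per probe set, and the submitters' processing notes name MAS5 and RMA without a role or order, so the normalization steps are not given in the sources used here. Of 22930 probe sets, 524 controls were left out, 19415 had 1 gene symbol, 125 several and 2866 none. The probe set of highest mean stood for each of 11940 genes.

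Genes were fitted with limma 3.58.1 in R 4.3.3 (lmFit, eBayes), with 10 groups of line and treatment and the experiment as a term (13 residual degrees of freedom). Replicate numbers in the labels mark the experiment, and between the 45 pairs of groups the deviations by experiment had a median r of 0.66 (0.09 to 0.86). A second fit with treatment by experiment terms (9 residual degrees of freedom) compared the experiments. In each of 23 comparisons p-values were adjusted over all genes by Benjamini and Hochberg's method, with a threshold of 0.05. The fit was also run on simulated data with independent noise on each array. Those data held no difference of response between experiments and no arrays that stood apart, so the run does not bear on either. Intervals are 95%, and folds are 2 to the power of the log2 change. The number of arrays limits the precision.

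The genes, lists and tests were chosen with earlier results of these data known. All 10 genes are named, with up to 4 genes of lowest p of each list and the 3 genes most like a member by Pearson r. Alternatives were no experiment term, other normalizations, array weights, other probe sets, a filter on dim genes, subsets of groups or experiments, and leaving out arrays. Leaving out the 2 arrays of lowest median was added after seeing the data.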

Additional observations from a re-analysis of the deposited data

Results flagged for a closer look

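The responses of 3 genes differed between the experiments by a test of the difference itself. The SRF response to IGF was 0.87 higher in experiment 2 on the log2 scale, and its response to FBS 0.79 higher. Of all genes, 1.08% were higher in the IGF comparison and 9.53% in the FBS comparison. The CCN2 response to FBS differed by −0.99 and that of MYL9 by −0.65, both smaller in experiment 2. For FBS 12.9% of all genes were lower, so 2 lower and 1 higher of the 10 were near the shares of all genes. The experiments differ in exposure time according to one of the labels and not according to another, so exposure and experiment cannot be told apart.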

How the results depend on the processing

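The alternatives gave counts of the 10 genes that passed in each comparison. Of 251 such counts under other settings, 201 were within 1.5 times the reported one, and of 552 without 1 array, 493 were. A count of 0 that stayed at 0 was taken as within 1.5 times. This held also in comparisons where 0% of all genes passed, so these shares are no measure of how stable the calls were. Without the replicate block of experiment the counts fell from 5 to 3 for the lines, 3 to 0 for starved lines, 1 to 0 for IGF over both lines and in Rab25, 3 to 1 for TGF beta and 2 to 0 for it in Rab25, and 4 to 2 for FBS and 2 to 1 for it in Rab25. With the groups compared alone they were 3 for IGF, 2 for TGF beta in pcDNA and 0 for FBS in Rab25. Counts of 1 experiment alone, which follow, rest on 1 array per treated group. Their spread comes from the starved arrays only, so they are not on a par with the reported counts. Experiment 1 alone gave 3 for IGF, 1 for TGF beta in each line, 3 and 5 for FBS in pcDNA and Rab25, and 1 for the FBS difference between lines. Experiment 2 alone gave 1 for EGF over both lines and in Rab25, 2 for IGF over both lines and in Rab25, 2 for TGF beta in pcDNA and 1 for FBS in pcDNA. Treatment by experiment terms gave 3 for IGF over both lines and in Rab25, 2 for TGF beta in pcDNA, 4 and 5 for FBS in pcDNA and Rab25, and 1 for the FBS difference. Quantile normalization gave 1 for TGF beta in each line and 1 for the FBS difference, and median centring and leaving out the 2 arrays of lowest median gave the same and 1 for FBS in pcDNA. Array weights gave 2 and 1 for TGF beta in pcDNA and Rab25, and 2 and 1 for FBS over both lines and in Rab25. The median of probe sets gave 0 for the IGF difference between experiments and 1 for TGF beta in Rab25, and leaving out the lowest 40% of genes gave 2 and, for TGF beta in pcDNA, 1. Without both Rab25 FBS arrays TGF beta and FBS in pcDNA each had 1. Without 1 array the counts ran from 1 to 4 for starved lines, 0 to 1 for IGF, for IGF in Rab25 and between experiments, 1 to 3 for TGF beta, 0 to 1 and 1 to 2 for it in pcDNA and Rab25, 1 to 4 for FBS, 0 to 2 and 1 to 3 for it in pcDNA and Rab25, and 0 to 1 for the FBS difference. Single changes were followed for 35 results, namely those of the 10 genes that passed and the TAGLN differences of response between lines. For these, 313 of 361 values under other settings kept direction and side of the threshold, and 753 of 840 without 1 array. The 840 include arrays outside the groups compared, which bear on a change mainly through the estimated spread and the adjustment. Of 19 values from other probe sets, 6 kept both, 11 lost the call and 2 reversed: the experiment difference of VCL (−0.012) and of SRF (−0.017). The causes were not tested. Quantile normalization and median centring moved the median of all genes by under 0.1.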

Other observations

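The log2 change with FBS was lower in experiment 2 for 5 of the 25 regulators and higher for 1, where 12.9% and 9.53% of all genes were. The higher one was VGLL4, a TEAD cofactor (1.04), and the lower ones included STK3 (−0.60), WWTR1 (−0.48) and SAV1 (−0.31). SAV1 was lowered by FBS over both lines (−0.61), so for it the lower value is a larger fall. The log2 change with IGF was higher in experiment 2 for 2 of the 26 contractile genes, FHL2 (0.60) and ZYX (0.44). It was also higher for 2 of the 18 YAP and TEAD targets, F3 (1.05) and NT5E (0.42), where 1.08% of all genes were.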
